A study of Mus musculus with 8 samples.

Results

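The 88 genes described here encode the protein part of the cytosolic ribosome and the factors that drive elongation on it. They were taken from the 54532 entries of the deposited count table by symbol: Rpl, Rplp and Rps followed by a number (with or without a or l), Rpsa, Eef1a1, Eef1b2, Eef1d, Eef1g, Eef2 and Tpt1, leaving out names ending in -ps and the Rps6k kinases. There were 51 large subunit genes, 31 small subunit genes, and 6 elongation genes among which Tpt1 was counted. The rule reads symbols alone.

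The RNAseq data compare primary lung fibroblasts (pFBs) of wild type mice (WT, 4 libraries) with pFBs of mice homozygous for a transgene of human IGFBP5, a secreted protein that binds insulin-like growth factors (HOMO, 4 libraries). Both genotypes have the C57/black strain background per the sample labels, and all mice were female per the study's methods. The cells grew out of minced lung, were kept in complete medium and received no treatment. The age of the mice is not given in the sample labels. The transgene was knocked in and is expressed ubiquitously from an elongation factor 1 a1 promoter, so it is not limited to fibroblasts, and the human transcript was not analysed here. Libraries are called WT1 to WT4 and HOMO1 to HOMO4, and n counts libraries. The sample labels and the study's methods do not state the mouse or culture behind each library, although the study's results speak of the HOMO libraries as differing by mouse, so the p-values measure the spread between these libraries.

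Library totals ran from 17236521 to 31987790 counts, and levels are given in CPM, the usual unit relative to library size, here scaled by TMM. On it 3 counts come to 0.0908 in HOMO2 and 0.172 in WT3, the libraries with the largest and smallest scaled size. WT1 with WT2, HOMO1 with HOMO2, and HOMO3 with HOMO4 differed by a coefficient of variation of 4.71 to 7.65% beyond counting noise, against 30.05 to 56.5% for all other pairs within a genotype. Whether the libraries of such a pair came from the same mouse or culture is not stated. If they did, the SDs, SEs, intervals and p-values below understate the spread between cultures, since they count every library as separate. The 10 fibroblast markers summed to between 19040 and 32079 CPM, while 7 endothelial markers reached at most 8.13 CPM. The 8 epithelial markers summed to 0.0574 to 0.558 CPM in WT and 1.34 to 14.5 CPM in HOMO. The 6 mesothelial markers summed to 58.5, 52.8, 235 and 148 CPM in WT1 to WT4 and to 106 to 152 CPM in HOMO. The 10 macrophage markers summed to 2108 CPM in WT3 and 1222 CPM in WT4, against 135 and 163 CPM in WT1 and WT2 and 59.1 to 197 CPM in the HOMO libraries. The 11 proliferation markers summed to 1743, 1527, 330 and 165 CPM in WT1 to WT4 and to 356, 353, 1347 and 1208 CPM in HOMO1 to HOMO4.

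The ribosome reads messenger RNA on its small subunit and joins amino acids on its large subunit, and each of its proteins is made in step with the others. The messenger RNAs of these proteins and of the elongation factors mostly begin with a stretch of pyrimidines, the terminal oligopyrimidine motif, through which mTORC1 and La-related proteins adjust their translation and stability together. During elongation eEF1A brings aminoacyl-tRNA to the ribosome, the eEF1B complex recharges eEF1A with GTP, and eEF2 moves the ribosome along by a codon. In proliferating fibroblasts these are among the most abundant messenger RNAs.

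The starts of the members named most often below are shown because this motif is the best known sequence feature that the genes share. Each line gives 20 bases before and 30 bases from the annotated start in RefSeq's GRCm38.p6 promoters, on the gene's strand, with runs of 6 or more pyrimidines in capitals. The first 4 are among the 5 members with the highest fold changes, the next 4 among the 5 with the lowest, and the rest the most abundant members and elongation factors.
Rps7 (chr12:28635924-28635973, minus strand): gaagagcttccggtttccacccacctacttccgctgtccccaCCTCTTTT
Rps12 (chr10:23787180-23787229, minus strand): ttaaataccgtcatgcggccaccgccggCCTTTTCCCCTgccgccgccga
Rps28 (chr17:33824533-33824582, minus strand): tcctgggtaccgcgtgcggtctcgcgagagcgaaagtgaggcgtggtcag
Rpl13 (chr8:123102330-123102379, plus strand): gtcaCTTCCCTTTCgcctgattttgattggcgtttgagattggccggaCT
Rps27l (chr9:66946066-66946115, plus strand): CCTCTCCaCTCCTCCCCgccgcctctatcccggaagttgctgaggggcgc
Rplp2 (chr7:141447631-141447680, plus strand): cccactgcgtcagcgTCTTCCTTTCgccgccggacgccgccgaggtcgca
Rps15a (chr7:118116118-118116167, minus strand): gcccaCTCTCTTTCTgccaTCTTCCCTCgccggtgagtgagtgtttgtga
Rps13 (chr7:116334161-116334210, minus strand): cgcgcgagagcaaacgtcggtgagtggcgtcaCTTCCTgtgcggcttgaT
Eef1a1 (chr9:78481695-78481744, minus strand): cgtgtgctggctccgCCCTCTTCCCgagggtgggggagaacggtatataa
Eef2 (chr10:81176611-81176660, plus strand): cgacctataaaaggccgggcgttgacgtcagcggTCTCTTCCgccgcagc
Rplp0 (chr5:115559447-115559496, plus strand): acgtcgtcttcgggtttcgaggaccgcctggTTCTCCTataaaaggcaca
Rps2 (chr17:24720043-24720092, plus strand): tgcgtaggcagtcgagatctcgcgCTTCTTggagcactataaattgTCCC
Rpsa (chr9:120127746-120127795, plus strand): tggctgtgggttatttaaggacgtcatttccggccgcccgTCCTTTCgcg
Eef1b2 (chr1:63176811-63176860, plus strand): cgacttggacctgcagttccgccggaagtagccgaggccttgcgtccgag
Tpt1 (chr14:75845236-75845285, plus strand): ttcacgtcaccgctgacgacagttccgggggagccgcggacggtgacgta
A run of 8 or more bases that are each C or T, on the gene's strand and reaching within 10 bases of the annotated start, was present in 31 of 76 promoter entries of 64 members (40.8%), against 14.0% of all 32851 entries and 14.4% of the 13293 entries of tested genes. Over the whole promoter entry (250 bases before to 50 bases after the start) and on both strands, CCGGAA was present in 47.4% of member entries, 14.9% of all entries and 26.4% of those of tested genes. AAGATGG was present in 14.5, 6.34 and 7.004%, and CACGTG in 11.8, 7.15 and 9.80%. TATAAA, in 10.5% of member entries, was less frequent than among all entries (13.6%) and more frequent than among those of tested genes (7.17%). Among the genes shown, such runs lie within 10 bases of the listed start in the 3 low members Rps27l, Rplp2 and Rps15a, the high members Rps12 and Rpl13, and Eef1a1. They span the start in Rplp2, Rps15a and Eef1a1, end before it in Rps27l and Rpl13, and begin after it in Rps12. The rule takes in runs on either side of the start, so it is wider than the terminal oligopyrimidine motif. Over all tested members with an entry, the median log2 fold change of HOMO over WT was 0.23 for the 29 genes with such a run and 0.19 for the 31 without. The split rests on the listed starts, and the starts used in these cells were not measured. Members without such a run, among them Eef2 with a run farther inside, may therefore still carry the motif. The members without an entry included Eef1d, Eef1g, Rpl17, Rpl21, Rpl23a, Rpl29, Rpl3, Rpl30, Rpl32, Rpl36, Rpl6l, Rpl7, Rpl8, Rplp1, Rps14, Rps20, Rps27a, Rps29 and Rps4l.

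The members took a larger mean share of the counts in HOMO than in WT. Their summed counts made up 5.18, 5.27, 6.33 and 4.23% of the counts of WT1 to WT4 and 7.63, 7.61, 6.36 and 6.23% of those of HOMO1 to HOMO4. The means were 5.25% ± 0.858 in WT and 6.96% ± 0.767 in HOMO (SD, n = 4 each), a difference of 1.71 percentage points or a fold of 1.32. The genotypes overlapped at WT3, which lay above HOMO4 and just below HOMO3. Large subunit genes held 2.39% ± 0.447 in WT and 3.06% ± 0.337 in HOMO, and small subunit genes 1.41% ± 0.288 and 1.81% ± 0.165. The elongation genes stood further apart, at 1.45, 1.45, 1.61 and 1.31% in WT1 to WT4 and 2.34, 2.30, 1.86 and 1.85% in HOMO1 to HOMO4. On library totals every HOMO library lay above every WT library for this sum, which was not taken on TMM-scaled sizes. Eef1a1 and Eef2 made up most of it, with means of 0.747 and 0.406% in WT and 1.06 and 0.638% in HOMO. Eef1g held 0.115% in WT and 0.123% in HOMO. In bulk RNA, fewer cells of a type and less RNA per cell cannot be told apart, and a share can also move with the rest of the library. Genes of mitochondrial DNA held 1.09% ± 0.323 of WT counts and 1.97% ± 0.165 of HOMO counts. Without them in the total the members' difference was 1.79 points, and on TMM-scaled library sizes, which allow for the makeup of the libraries, it was 1.30 points. On TMM-scaled sizes WT3, at 6.85%, lay above both HOMO3 (6.13%) and HOMO4 (6.01%).

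**Figure D1:**
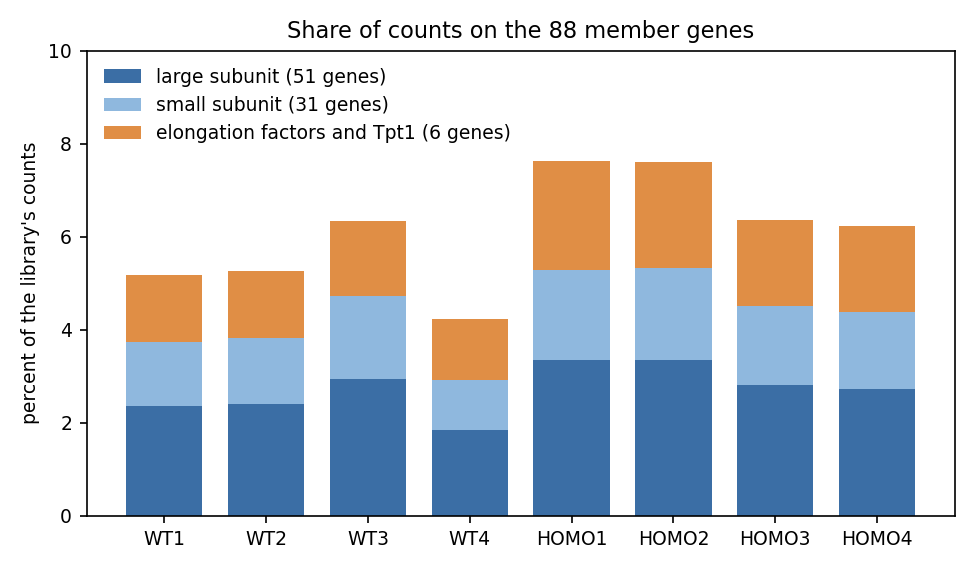
Stacked bars give the percent of each library's counts (vertical axis) that fell on large subunit genes, small subunit genes and the elongation genes with Tpt1, with no error bars since each bar is 1 library. HOMO1 and HOMO2 stand highest at 7.63 and 7.61%, WT4 lowest at 4.23%, and WT3 at 6.33% is level with HOMO3 and HOMO4.

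Gene by gene, most members were slightly higher in HOMO and few passed edgeR's test. Of the 88 members 84 had enough counts for edgeR's quasi-likelihood test of HOMO against WT, which was fitted over 14150 genes with Benjamini-Hochberg adjustment. Their log2 fold change was above 0 in 70 and below 0 in 14, with a median of 0.21 and quartiles of 0.07 and 0.38, while the median over all tested genes was -0.04. DEGs had to pass 0.05 for the adjusted p and exceed 0.6 in log2 fold change in either direction. This was met by 2 of 84 members or 2.38%, Rps7 among them, against 12.1% of all tested genes, and the same 2 were the members with an adjusted p under 0.05 whatever the fold, against 13.4%. An unadjusted p under 0.05 was found for 13 members, all of them higher in HOMO, or 15.5% against 32.3% of all tested genes. In 9 members, or 10.7%, every HOMO library lay above every WT library, against 14.0% of all tested genes. In 0 members did every HOMO library lie below every WT library, against 1891 of the 14150 tested genes. All of these shares from edgeR were under the background. DESeq2 called 4 members (4.76%, against 19.0% of all tested genes), with 9 by adjusted p alone (10.7%, against 23.5%). Limma-voom with sample weights called 10 (11.9% against 25.3%), but by adjusted p alone it passed 45 members, or 53.6% against 47.7% of all tested genes. The calls depended on single libraries: without WT3 the test called 11 members, without WT1, WT2, HOMO1 or HOMO2 it called 0 (5 or 6 at an unadjusted p under 0.05), and without WT4, HOMO3 or HOMO4 it called Rps7 alone. Calls over the whole table also moved, as across these fits the test called 507 to 2192 of all genes. With each near-identical pair summed into 1 library it called 0 genes of the whole table, and 0 members had an unadjusted p under 0.05.

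**Figure D2:**
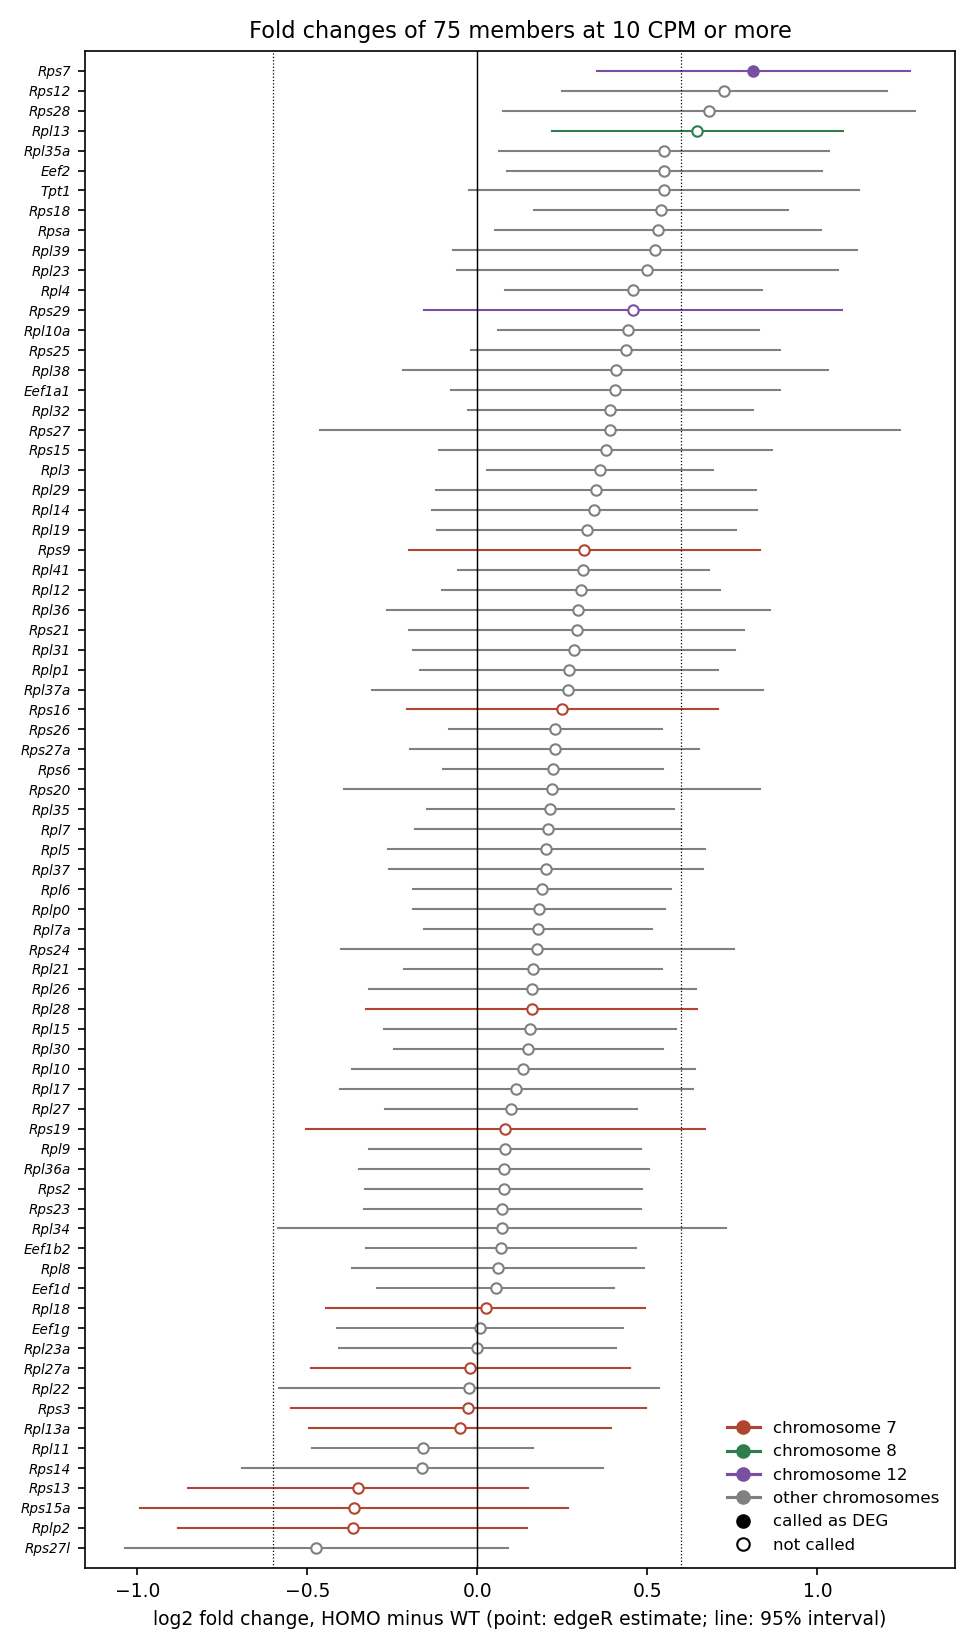
Each point is the log2 fold change of a member, HOMO minus WT (horizontal axis), for 75 of the 80 members with a mean of 10 CPM or more, ordered by value, with its 95% interval from edgeR as a line and filled points for called genes. Dotted lines mark 0.6 in either direction. Most intervals lie mainly to the right of 0, Rps7 (0.81) is filled, and colours mark chromosomes 7, 8 and 12.

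The fold changes of the members spread less than those of all abundant genes. Among the 79 members with a mean of 100 CPM or more the log2 fold changes had an SD of 0.26, against 0.68 among all 2230 tested genes at that level, whose median was -0.10. Per kilobase of transcript, taking the median length of a gene's protein-coding transcripts, the middle large subunit gene stood at 692 CPM and the middle small subunit gene at 711 CPM. On this scale Eef1a1 was highest at 10484 CPM per kilobase, followed by Rplp0 at 2314, Rplp1 at 2159 and Rps12 at 1849. These values and their order depend on the lengths used, such as 859 bases for Eef1a1 and 854 for Rplp0. Other lengths were not tried. Levels in the rest of the text are CPM on TMM-scaled library sizes without length correction.

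In the large subunit, the structural protein gene Rpl13 read 806, 797, 1079 and 661 CPM in WT and 1452, 1426, 1197 and 1159 CPM in HOMO, without overlap, and the fold change of 0.65 ± 0.19 (log2, SE) had an adjusted p of 0.0541. The core proteins Rpl3 and Rpl4 showed the same order with smaller differences, at log2 fold changes of 0.36 and 0.46, and neither passed the test. Across the large subunit, 41 of 47 tested genes were above 0 with a median of 0.20.

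In the small subunit the called gene was Rps7, whose protein also takes part in small subunit assembly and binds Mdm2. It read 399, 418, 471 and 582 CPM in WT and 977, 968, 664 and 673 CPM in HOMO. All HOMO values exceeded the highest WT value, that of WT4, and the log2 fold change was 0.81 ± 0.20 with an adjusted p of 0.0344 in edgeR. Rps12 read 585, 616, 785 and 755 CPM in WT and 1353, 1388, 933 and 862 CPM in HOMO, with no overlap and a log2 fold change of 0.73 ± 0.21 (adjusted p 0.0535 in edgeR). Rps28 was less clear, since WT3 with 239 CPM lay above HOMO3 with 218 and HOMO4 with 205 CPM, and its adjusted p was 0.119. The abundant members Rpsa, a laminin-binding protein of the small subunit, and Rps2 differed from each other. Rpsa read 1352, 1400, 1545 and 813 CPM in WT and 1828, 1833, 1926 and 1800 CPM in HOMO (log2 fold change 0.53, adjusted p 0.124 in edgeR). Rps2 read 2037, 1983, 1715 and 1349 CPM in WT and 1735, 1773, 2049 and 1915 CPM in HOMO, with full overlap and a log2 fold change of 0.08. Of the 31 small subunit genes 23 were above 0, with a median of 0.23.

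The acidic stalk, which recruits the elongation factors to the ribosome, differed in sign among its proteins, none of which passed the test. Rplp0, its base, had a log2 fold change of 0.18 (95% interval -0.19 to 0.55) and Rplp1 of 0.27 (-0.17 to 0.71). Rplp2, the partner of Rplp1, had one of -0.37 (-0.88 to 0.15). Rplp2 read 345, 363, 620 and 302 CPM in WT and 327, 328, 308 and 300.0 CPM in HOMO. WT3 alone stood out, and the other 7 libraries lay together.

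Among the elongation genes the translocase and the tRNA carrier were higher in HOMO without passing the test, and the exchange factors differed little. Eef2 read 3879, 3926, 3900 and 5184 CPM in WT and 7149, 6881, 5328 and 5362 CPM in HOMO. The highest WT library was just under the lowest HOMO library, and the log2 fold change of 0.55 ± 0.20 had an adjusted p of 0.104 in edgeR. Eef1a1 read 7022, 7087, 9784 and 7098 CPM in WT and 11557, 11202, 9166 and 9130 CPM in HOMO. WT3 lay above HOMO3 and HOMO4, and the log2 fold change was 0.41 ± 0.21 with an adjusted p of 0.223. Tpt1, the growth-related protein TCTP that binds eEF1 factors, read 1099, 1141, 1643 and 1053 CPM in WT and 2246, 2261, 1363 and 1352 CPM in HOMO, so that HOMO1 and HOMO2 alone were above all of WT (log2 fold change 0.55, adjusted p 0.169). The 3 subunits of the eEF1B exchange complex lay near 0, Eef1b2 at 0.07 (95% interval -0.33 to 0.47), Eef1d at 0.05 (-0.30 to 0.40) and Eef1g at 0.01 (-0.41 to 0.43). All 3 were below 0 when WT4 was left out.

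Some members are paralogs with restricted expression or are annotated as pseudogenes. Rpl3l and Rpl10l, the muscle and testis counterparts of Rpl3 and Rpl10, and Rpl39l, a testis counterpart of Rpl39, were not tested. Rpl10l had 0 counts in all 8 libraries, which allows at most 0.172 CPM in WT3, the library with the smallest scaled size. Rpl39l had at most 2 counts per library, and Rpl3l had 25 counts in WT4 and at most 5 elsewhere. Rpl32l, a processed pseudogene, also had at most 2. Their partners stood at log2 fold changes of 0.36 (Rpl3), 0.13 (Rpl10) and 0.52 (Rpl39), with adjusted p of 0.13, 0.711 and 0.203 in edgeR. Rps4l, annotated as a transcribed processed pseudogene, had the lowest fold change of the module (-2.21) on 202 counts in WT3 against 4 to 35 in the other libraries. Without WT3 its log2 fold change was 0.20. Rps27l, a p53-inducible paralog of Rps27, read 122, 147, 233 and 97.2 CPM in WT and 108, 109, 111 and 103 CPM in HOMO, and the fold change of -0.47 (log2) had an adjusted p of 0.221. Rps27 itself was at 0.39. The 303 entries named as pseudogenes of members held 0.0115% of WT counts and 0.0155% of HOMO counts, so adding them moved the members' share by less than its spread. How reads shared between a member and its copies were counted is not given in the sources used here.

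A few members share exonic sequence with an overlapping gene model. Rpl24, Rpl13a and Rps10 share 47.0, 35.4 and 20.6% of their exonic bases with another gene on the same strand, and these 3 read 0.503 to 1.00, 34.9 to 63.0 and 2.75 to 8.66 CPM. Per kilobase the means of Rpl24 and Rps10 were 1.12 and 7.88 CPM, under the 692 and 711 CPM at the middle of the subunits. Their overlapping neighbours with an entry had 0 counts in every library. The levels of these 3 genes are uncertain, and the part of the overlap was not tested. Of 6 other members at least 20% of the exonic bases overlap a gene on the other strand, the most in Rpl35 (66.2%) and Rpl23a (59.7%), and the strand setting of the count is not given in the sources used here.

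Some libraries of the same genotype differed from each other in these genes by more than the median difference between the genotypes. Among the 80 members with a mean of 10 CPM or more, WT3 was the highest WT library in 74 and the highest of all 8 in 42. WT4 was the lowest of all 8 in 45 and WT1 in 30. WT3 exceeded the mean of WT1 and WT2 in 76 of 80 members, by a median of 0.57 on the log2 scale, and HOMO1 and HOMO2 exceeded HOMO3 and HOMO4 in 72, by a median of 0.26. WT4 was nearer to WT1 and WT2, above their mean in 30 members with a median difference of -0.10. Against WT1 and WT2, HOMO1 and HOMO2 were higher in 74 (median 0.51) and HOMO3 and HOMO4 in 68 (median 0.24). Against WT4, HOMO3 and HOMO4 were higher in 76 (median 0.30). Against WT3 the order turned, with HOMO1 and HOMO2 higher in 35 (median -0.06) and HOMO3 and HOMO4 in 13 (median -0.32). These are counts over genes of the same libraries and are given without a test. Both extremes of WT, WT3 and WT4, had high macrophage markers (2108 and 1222 CPM) and low proliferation markers (330 and 165 CPM), and the part of these cells in the members' levels was not tested.

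**Figure D3:**
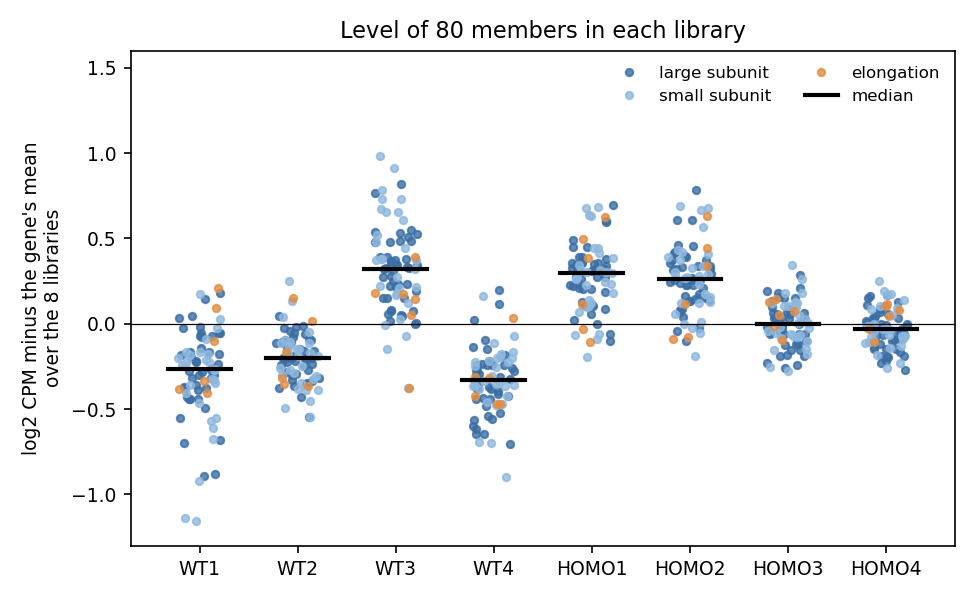
Points are 80 members in each library, as log2 CPM minus the gene's mean over the 8 libraries (vertical axis), coloured by role and scattered sideways at random, with the median as a bar. The medians were -0.26, -0.20, 0.32 and -0.33 in WT1 to WT4 and 0.30, 0.26, -0.00 and -0.03 in HOMO1 to HOMO4, so WT3 sits with HOMO1 and HOMO2.

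The near-identical libraries WT1 and WT2 differed in the members with short transcripts. Rps27 read 99.3 CPM in WT1 and 167 in WT2, Rps29 46.5 and 82.9, Rpl38 104 and 159, and Rps28 111 and 172. Over 80 members the difference of WT1 minus WT2 had a Spearman correlation of 0.43 with transcript length, and the median difference was -0.19 on the log2 scale in the 14 members under 500 bases and -0.05 in the other 66. Over all 9401 genes at that level the correlation was 0.02. The 145 of them under 500 bases had a median difference of -0.069, against 0.005 in the other 9256, so short genes at large leaned the same way. For HOMO minus WT the members' correlation with length was -0.06. These points share libraries and carry no p.

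Several members at the ends of the ranking lie on chromosomes whose tested genes were shifted as a whole. Rpl13, among the 5 highest members, lies on chromosome 8, and the 790 tested genes of that chromosome had a median log2 fold change of 0.37. Rps7 and Rps29 lie on chromosome 12, with a median of 0.24 over 501 tested genes. In WT4 the genes of chromosome 12 stood 0.65 above the mean of the other WT libraries (median, log2). WT4 was also the highest WT library for Rps7. At the other end, Rplp2, Rps15a and Rps13 lie on chromosome 7, whose 1045 tested genes had a median of -0.29. In WT3 the genes of chromosome 7 stood 0.36 above the mean of the other WT libraries (median, log2). Of the 14 members on chromosome 7, which include Rps3, Rps9, Rps16 and Rpl28, 7 were above 0 and their median was 0.00, and in 14 of 14 WT3 was the highest WT library. Other members at the ends lie elsewhere, Rps12 on chromosome 10, Rps28 on 17, Rps27l on 9 and Rps4l on 6, whose medians were 0.05, 0.06, 0.12 and -0.06. Rps15a read 284, 292, 597 and 244 CPM in WT and 284, 304, 249 and 265 CPM in HOMO, and Rps13 read 264, 266, 445 and 218 CPM in WT and 248, 249, 218 and 221 CPM in HOMO, so in both WT3 alone was high. WT3 exceeded WT1 and WT2 by a median of 0.79 on the log2 scale in the chromosome 7 members and 0.50 in the 62 members outside chromosomes 7, 8 and 12. Those 62 include members on other shifted chromosomes, such as 18, 3 and 13 with medians of -0.31, -0.23 and -0.21, and 16 with 0.16.

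Set against its own chromosome's median, the module was more even. Over the 80 members the log2 fold change had a Spearman correlation of 0.59 with the chromosome median, as a description over genes that share these libraries. After subtracting that median, 74 of 80 members were above 0, with a median of 0.29 and an SD of 0.20 in place of 0.26. The chromosome 7 members then had a median of 0.29, and the 62 outside chromosomes 7, 8 and 12 also had one of 0.29. Rpl13 exceeded the median of chromosome 8 by 0.27, and Rps7 exceeded that of chromosome 12 by 0.58. These chromosomes were singled out after the values were seen, and what shifts them was not tested.

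**Figure D4:**
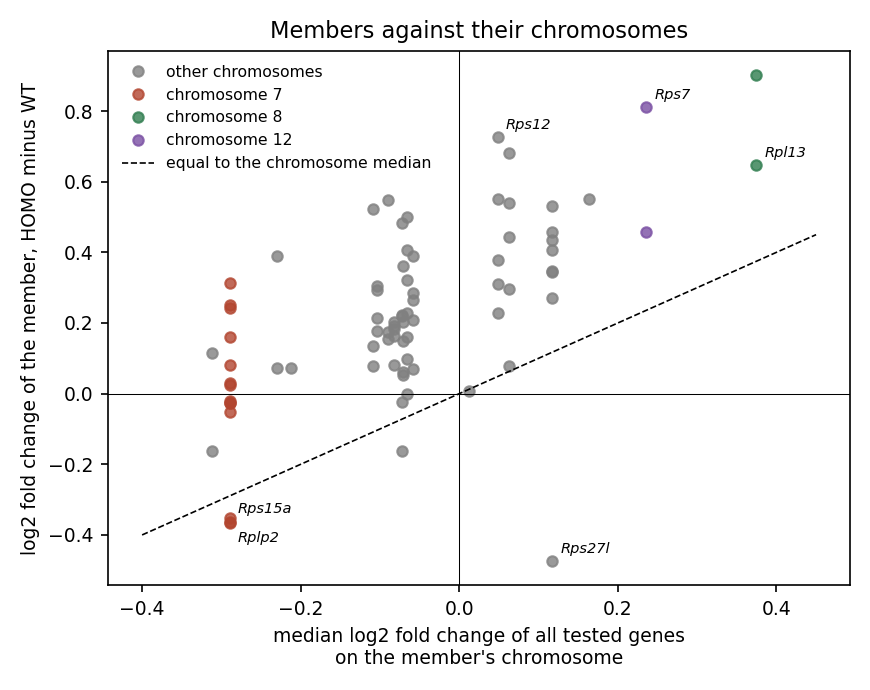
Each point is a member with a mean of 10 CPM or more, with its log2 fold change (vertical axis) against the median log2 fold change of all tested genes on its chromosome (horizontal axis), and a dashed line where both are equal. Of 80 points 74 lie above the line, and Rps27l lies farthest below it.

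Ribosomal proteins whose symbols fall outside the name rule had a median close to that of the members. Of 9 such genes 6 were above 0, with a median of 0.25, 0 were called and 0 had an unadjusted p under 0.05 in edgeR, while DESeq2 called 0 and limma-voom with sample weights called 1, Rps27rt. Fau, a fusion of ubiquitin-like Fubi with Rps30, was at 0.35, Rack1, a scaffold on the small subunit, at 0.24, Rps4x at 0.25 and Rpl22l1 at 0.48. Rps27rt at 0.76 and Rpl36al at -0.58 had levels of 3.34 CPM or less in every library. Rps3a1 read 535, 563, 1124 and 551 CPM in WT and 561, 575, 627 and 616 CPM in HOMO, so that WT3 alone was high and its log2 fold change was -0.22, while Rpl7l1 was at -0.01.

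Other genes of translation had a median near 0. Over 5 lists of such genes, which include the 9 ribosomal proteins just described, 129 of 131 were tested, 57 were above 0 with a median of -0.05, and 5 (3.88%) were called against 12.1% of all tested genes. Among 38 initiation factors the median was -0.08. Eif4a2, a helicase that unwinds the leader, rose from 209, 218, 354 and 287 CPM in WT to 568, 579, 389 and 408 CPM in HOMO (log2 fold change 0.86, adjusted p 0.0391 in edgeR). Eif4g2, a scaffold for cap-independent initiation, fell from 875, 862, 959 and 949 CPM to 548, 546, 651 and 632 CPM (log2 fold change -0.62, adjusted p 0.023 in edgeR). Eif3c, a core subunit of eIF3, fell likewise (-0.62, adjusted p 0.0302 in edgeR), and both Eif4g2 and Eif3c lie on chromosome 7. Eif4b, a cofactor of the helicase, was higher by 0.60, just under the fold threshold, with an adjusted p of 0.0319.

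Among 12 other elongation factors and regulators 1 gene was called, Eef1e1 of the multisynthetase complex, which read 32.2, 30.2, 31.4 and 26.9 CPM in WT and 13.2, 16.8, 20.9 and 19.7 CPM in HOMO (log2 fold change -0.77, adjusted p 0.0247 in edgeR). In the list of 25 tested mTORC1 and translational control genes, whose median was 0.11, Eif2ak3, the kinase PERK that phosphorylates eIF2 under endoplasmic reticulum stress, fell by 0.64 on the log2 scale (adjusted p 0.0144 in edgeR). Limma-voom with sample weights did not call Eif4g2, Eif3c or Eif2ak3, and edgeR called 0 translation genes of these lists without HOMO1 or without HOMO2, with 11 and 12 at an unadjusted p under 0.05. Pdcd4, an inhibitor of the helicase, was higher by 0.40 with an adjusted p of 0.0489, under the fold threshold. Of 45 tested ribosome biogenesis factors 0 were called and 4 had an unadjusted p under 0.05 in edgeR, while DESeq2 called 0 and limma-voom with sample weights called 6. Their median was -0.07. Their share of counts was 0.617, 0.534, 0.314 and 0.292% in WT1 to WT4, so the order of the WT libraries differed from that of the members.

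**Figure D5:**
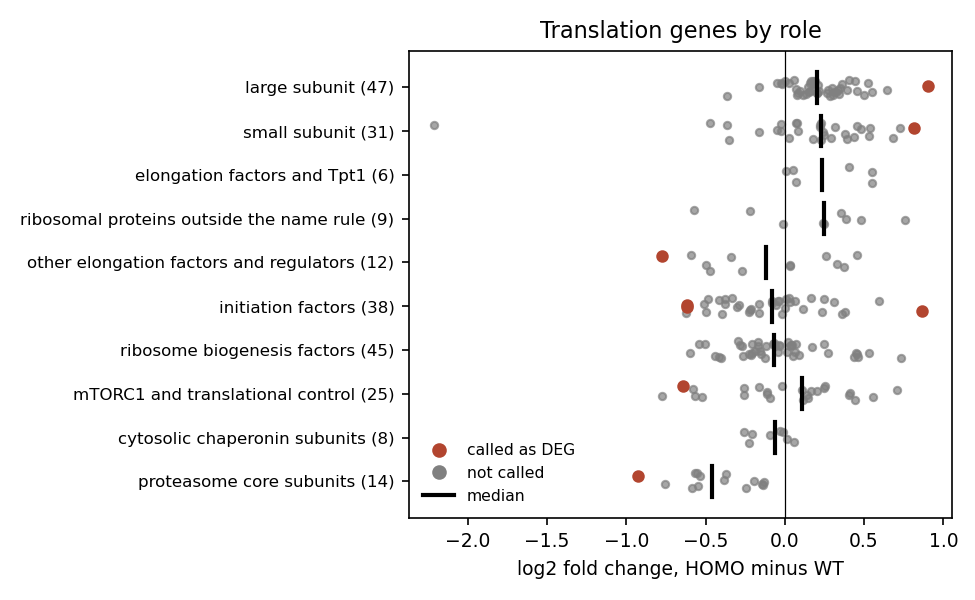
Each point is a tested gene placed by its log2 fold change, HOMO minus WT (horizontal axis), in rows by role with the number of tested genes, scattered within the row at random, with the row's median as a bar and called genes in red. The medians of the 3 rows of members (0.20, 0.23 and 0.24) and of the other ribosomal proteins (0.25) lie to the right of 0, and that of the proteasome core (-0.46) to the left.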

How the data were processed

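Total RNA from pFBs was sequenced as paired ends in 8 libraries, 4 WT and 4 HOMO, grouped by their titles. The authors trimmed reads with fastp, aligned them to mm10 with STAR and deposited raw gene counts made with featureCounts. The versions and the strand and multimapping settings are not given in the sources used here. The deposited counts carry the word "outlierout", which the sources used here do not explain.

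Counts were tested with edgeR 4.0.16 (TMM, filterByExpr by genotype, quasi-likelihood F test, Benjamini-Hochberg adjustment over 14150 genes) in R 4.3.3. Log2 CPM has a prior count of 2. DESeq2 1.42.0, limma 3.58.1, other scalings and filters, a replicate block, leaving out each library and summing near-identical libraries were alternatives. The test was checked on simulated data. Tables and figures used Python 3.11.15, pandas 2.3.3, scipy 1.17.1 and matplotlib 3.10.9. Of the entries, 53679 matched GENCODE release 21 for mouse (M21), which gave positions, exon overlaps and transcript lengths.

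Members and gene lists were chosen with earlier results of these data known. Genes named are the 5 most abundant members, the 5 highest and 5 lowest fold changes, called members, elongation, stalk and paralog members with partners, called genes of the other translation lists, and ribosomal proteins outside the name rule. Others were named after their values were seen. Intervals are at 95%. A few further genes are not reported here by name.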

Additional observations from a re-analysis of the deposited data

Results flagged for a closer look

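Within the 4 libraries of a genotype, a single library stood apart from the other 3 by Dixon's test in 4 of the 86 groups of 4 examined for the genes named here. Chance gives about 1 in 20 for independent libraries, whereas the HOMO libraries form near-identical pairs, and all 4 cases were in WT. Eef1a1 was at 13.26 log2 CPM in WT3 and at 12.78 to 12.79 in the other WT libraries. Eef2 was at 12.34 log2 CPM in WT4 and at 11.92 to 11.94 in the others. Rps3a1 was at 10.13 log2 CPM in WT3 and at 9.06 to 9.14 in the others. Eif2ak3 was at 5.87 log2 CPM in WT4 and at 5.70 to 5.73 in the others.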

How the results depend on the processing

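The members' median log2 fold change stayed between 0.14 and 0.39 and their difference in share between 1.37 and 2.07 points when each library was left out in turn, and neither moved beyond the spread between libraries under any alternative, while the number of calls did. RLE, upper-quartile and member-free TMM scaling kept every count within 1.5 times. Called members numbered 4 with DESeq2 (9 by adjusted p alone, 2695 of all genes), 5 with library totals (6; other translation genes 3), 1 with no filter (1; 3), 4 with CPM above 1 in 4 libraries (4) and 10 with limma-voom sample weights (45; 10; 3573 of all genes). Summing near-identical libraries gave 0 (0; 0) and 0 of all genes, with 2057 at an unadjusted p under 0.05, none of them members. Leaving out each library gave 0 to 11 called members, 0 to 20 by adjusted p alone, 0 to 6 other translation genes and 507 to 2192 of all genes. Without WT3 there were 11 and 20, and without HOMO1 or HOMO2 507 and 512 of all genes. With the replicate block 0 members were called (8 at an unadjusted p under 0.05), 0 passed by adjusted p, 0 other translation genes and 947 of all genes were called. Same-numbered libraries did not deviate together (r between -0.12 and 0.01), so the numbers are not taken as pairs. Chosen after seeing the data, leaving out the chromosome 8 members gave 1. Signs turned with limma-voom Eef1g (-0.10), Rps2 (-0.059), Rpl7l1 (0.043), Rps3a1 (0.11) and Rps4l (1.46), and for Rpl7l1 also with upper-quartile scaling (0.0099), library totals (0.078), no filter (0.0023) and summed libraries (0.0057). Leaving out each library gave ranges of -0.016 to 0.24 (Eef1b2), -0.061 to 0.12 (Eef1d), -0.12 to 0.082 (Eef1g), -0.053 to 0.021 (Rpl7l1), -0.50 to 0.0096 (Rps15a), -0.033 to 0.15 (Rps2), -0.33 to 0.11 (Rps3a1) and -2.92 to 0.20 (Rps4l). The cause of these changes was not tested. Depth limits the paralogs with few counts.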

Other observations

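The proteasome core, whose subunits form the barrel that degrades ubiquitin-tagged proteins, lay on the other side of 0 from the ribosomal proteins. All 14 tested subunits had a log2 fold change below 0, with a median of -0.46. In edgeR 3 of the 14 had an adjusted p under 0.05, against 13.4% of all tested genes. Of these 1 was called (7.14% of the 14, against 12.1% of all tested genes), while DESeq2 called 2, Psma1 and Psmb5, and limma-voom with sample weights called Psma1. Psma1 read 101, 91.7, 147 and 73.4 CPM in WT1 to WT4 and 47.6, 49.6, 60.8 and 58.7 CPM in HOMO1 to HOMO4, without overlap (log2 fold change -0.93, adjusted p 0.0272 in edgeR). Psma2 and Psmb2 were lower by 0.56 and 0.53 on the log2 scale, with adjusted p of 0.0478 and 0.0428. As in the ribosomal proteins WT3 was high, since the 14 subunits summed to 2344 CPM there and to 1428 to 1483 CPM in the other WT libraries, against 1181 to 1367 CPM in HOMO. The 8 tested subunits of the cytosolic chaperonin, which folds actin and tubulin, had a median of -0.06, with 0 called and 0 at an unadjusted p under 0.05 in edgeR, and DESeq2 and limma-voom with sample weights also called 0.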
